A study of Mus musculus with 2 samples.

Results

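Mature osteoblasts line the bone surface and lay down mineralising matrix, and those that are buried in it become osteocytes. In the periosteal cells measured here, 52 of 9617 retained cells carried at least 1 unique molecular identifier (UMI, a tag that counts each captured mRNA molecule once) of at least 3 of 6 genes of late osteoblasts and early osteocytes, namely *Dmp1*, *Phex*, *Ifitm5*, *Car3*, *Slc13a5* and *Bmp8a*. They numbered 34 of 4462 cells in the control library and 18 of 5155 cells in the Piezo1 fl/fl library, which is 0.762% (95% exact binomial interval 0.528 to 1.06%) and 0.349% (0.207 to 0.551%). A cell was retained with at least 1000 detected genes and under 25% mitochondrial UMIs. Because the 6 genes chose the cells, their levels are given as a description and support nothing else.

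The study sorted Prrx1-lineage (Ai9-positive) cells from the periosteum of femurs and tibias of 8-week-old mice and profiled them by BD Rhapsody whole-transcriptome capture from the 3′ end, in 1 library per genotype. Control mice carried Prx1 Cre and the Ai9/+ reporter, a red fluorescent protein switched on by Cre. The other mice carried the same alleles with a floxed *Piezo1* gene (Prx1 Cre; Ai9/+; Piezo1 fl/fl), so both groups share the Cre and the reporter. Prx1 Cre acts in the limb mesenchyme from the embryo on, so the deletion is not limited to osteoblasts, and the number of mice behind each library is not given in the sources used here. The bone ends were capped in agarose and the bones digested by collagenase with dispase and DNase in 3 rounds, of which the last 2 were collected. With a single library per genotype there are no replicates. No test was made, and every interval covers counting error only.

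Osteoblasts secrete type I collagen together with small acidic proteins that bind mineral, and the genes of several of these proteins (*Dmp1*, *Ibsp*, *Mepe* and *Spp1*) lie next to each other in the genome. Osteocalcin, the product of *Bglap* and its near copy *Bglap2*, is made by osteoblasts late in their maturation and depends on the transcription factor *Runx2*, while osteopontin, the product of *Spp1*, is also made at earlier stages and by cells that remodel matrix. Osteocytes express *Dmp1*, *Phex* and *Mepe*, and when mature *Sost*, the antagonist of Wnt signalling, and *Fgf23*, the hormone that lowers blood phosphate.

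The label was checked on genes that did not choose the cells. Bone matrix genes were abundant in these cells. *Col1a1*, the chain that makes up most of type I collagen, reached a level of 160850 CPM (UMIs of the gene per 1000000 UMIs of the group) in the control cells, against 93678 CPM in cells with at least 2 *Tnn* and at least 3 *Ibsp* UMIs (Tnn+ Ibsp+ cells, the nearest cells of the osteoblast series). Some genes of osteocytes were close to absent. *Mepe* and *Sost* had 0 UMIs in the 34 control and the 18 Piezo1 fl/fl cells, which allows a share of cells with a UMI of up to 8.82% and 16.7%, and *Fgf23* had 1 UMI in the control and 0 UMIs in the Piezo1 fl/fl cells. *Sost* had 0 UMIs in all barcodes of both libraries, so mature osteocytes were not seen at this depth. *Phospho1*, the phosphatase that starts mineral formation in vesicles, likewise had 0 UMIs in these cells, and 0 and 1 UMI over all barcodes of the control and the Piezo1 fl/fl library, although osteoblasts are known to make it. On bone matrix genes, the osteoblast part of the label held for the pooled cells, with levels that were uneven among them. In 14 cells, described below as sub-group 2, *Ibsp* and *Spp1* were at 22656 and 39565 CPM, above the other sub-groups. *Col1a1* was at 84446 CPM there, below the other sub-groups. In the control cells of sub-group 2 it was at 84004 CPM, no higher than in the control Tnn+ Ibsp+ cells. Those are also cells of the osteoblast series, so *Col1a1* alone does not settle the label of the 14 cells. The early osteocyte part was not borne out in the same way, as *Mepe* had 0 UMIs and other osteocyte genes outside the rule gave a mixed picture, described below. The 52 cells are therefore named by the rule and called the selected cells below.

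The promoters of 4 genes are shown because *Bglap*, *Spp1*, *Mmp13* and *Dmp1* vary from cell to cell among the 52, as described below, and because *Runx2* is known to act on several of them. Each is the 250 bases before a RefSeq transcription start (GRCm38.p6), with the core letters that Runx proteins bind, ACCACA or the same read on the other strand (TGTGGT), in capitals. The motif was found once in each window shown. The other RefSeq window of *Spp1* and that of *Dmp1* lacked it, as did all windows of *Ibsp*, *Phex*, *Ifitm5*, *Slc13a5*, *Bmp8a* and *Col11a2*.
Bglap: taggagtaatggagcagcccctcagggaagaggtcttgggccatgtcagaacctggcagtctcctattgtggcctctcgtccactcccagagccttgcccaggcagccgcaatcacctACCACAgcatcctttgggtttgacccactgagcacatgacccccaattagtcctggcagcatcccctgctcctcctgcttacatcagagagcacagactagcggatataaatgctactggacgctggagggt
Spp1: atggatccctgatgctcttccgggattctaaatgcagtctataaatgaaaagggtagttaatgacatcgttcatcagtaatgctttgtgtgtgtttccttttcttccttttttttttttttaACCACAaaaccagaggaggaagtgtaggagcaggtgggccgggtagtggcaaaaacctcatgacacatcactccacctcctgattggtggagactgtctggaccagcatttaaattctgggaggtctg
Mmp13: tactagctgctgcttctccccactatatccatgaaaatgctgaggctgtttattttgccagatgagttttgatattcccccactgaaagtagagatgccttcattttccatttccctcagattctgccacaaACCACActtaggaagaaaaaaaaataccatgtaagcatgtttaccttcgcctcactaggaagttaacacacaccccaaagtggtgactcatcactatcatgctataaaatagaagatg
Dmp1: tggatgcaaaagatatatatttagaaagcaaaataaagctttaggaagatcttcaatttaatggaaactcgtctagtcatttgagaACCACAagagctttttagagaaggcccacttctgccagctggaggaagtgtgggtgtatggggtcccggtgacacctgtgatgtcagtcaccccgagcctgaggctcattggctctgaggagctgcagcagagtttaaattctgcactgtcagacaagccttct
The *Bglap* promoter is chr3:88384467-88384716 on the minus strand, with the motif 132 to 127 bases before the start. That of *Spp1* is chr5:104434861-104435110 on the plus strand (motif 128 to 123 bases before), that of *Mmp13* chr9:7272264-7272513 on the plus strand (118 to 113 bases before) and that of *Dmp1*, at the second of its starts, chr5:104202367-104202616 on the plus strand (164 to 159 bases before). The same letters stand in 14% of all 32851 promoter windows of this length. Of 23 genes of these cells looked up, 16 had a window, and 6 of the 16 held the letters in at least 1 window. The first share counts windows and the second counts genes, some with several windows, so they are not alike. A match of letters describes the window and shows no binding.

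The genes of these mineral-binding proteins and of osteocalcin lie in 2 clusters. In GENCODE vM21 (GRCm38), *Dmp1* (ENSMUSG00000029307, chr5:104202613-104214102), *Ibsp* (ENSMUSG00000029306, chr5:104299171-104311469), *Mepe* (ENSMUSG00000053863, chr5:104325329-104338611) and *Spp1* (ENSMUSG00000029304, chr5:104435118-104441050) follow each other on the plus strand of chromosome 5. *Bglap* (ENSMUSG00000074483, chr3:88383501-88384464), *Bglap2* (ENSMUSG00000074486, chr3:88377736-88378699) and *Bglap3* (ENSMUSG00000074489, chr3:88368616-88372743) form a cluster on the minus strand of chromosome 3. The first annotated transcript of *Bglap* is identical to that of *Bglap2* at 434 of 440 aligned bases (98.6%), so the counts of *Bglap* and *Bglap2* may be split between them by the authors' mapping and their separate levels are uncertain.

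The selected cells were deeper than the rest of the sort, with a median of 8764 UMIs in the control and 9064 UMIs in the Piezo1 fl/fl library, against 4834 and 4626 UMIs over all retained cells. Deeper cells show more of the 6 genes, so retained cells with at least 2500 UMIs were also thinned to that depth. This left 23 of 3980 and 10 of 4572 cells meeting the rule. The 482 control and 583 Piezo1 fl/fl retained cells below that depth were left out. Of the selected cells, 33 of 34 and 17 of 18 reached it. Scrublet called 0 of the 52 cells a doublet, though it called only 0.829% and 0.988% of the scored barcodes of the control and the Piezo1 fl/fl library. The libraries share 50 cell barcodes, none of them among the 52 cells. Endothelial marker genes summed to 5 and 1 UMIs in the control and the Piezo1 fl/fl cells and pericyte and smooth muscle markers to 6 and 6 UMIs. Marker genes of tendon and cartilage were present, and their sums are given beside the results they touch.

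Of the genes that chose the cells, *Ifitm5*, a small membrane protein of mineralising osteoblasts, was found most often, in 31 of 34 control and 15 of 18 Piezo1 fl/fl cells. Per control cell it ran from 0 over a median of 5.05 to 17.4 UMIs per 10000. *Dmp1*, the matrix protein of early osteocytes, had a UMI in 26 of 34 control and 12 of 18 Piezo1 fl/fl cells. Its control level of 811 CPM rested largely on 1 cell, which held 57.9% of the 318 UMIs, and the median control cell had 1.7 *Dmp1* UMIs per 10000. *Phex*, the peptidase whose loss causes phosphate wasting, was present in 19 of 34 control cells (694 CPM) and in 5 of 18 Piezo1 fl/fl cells (149.9 CPM). *Car3*, a carbonic anhydrase, was present in 26 and 8 cells (1798 and 605 CPM), the citrate carrier *Slc13a5* in 20 and 10 cells (365 and 249.9 CPM), and the growth factor *Bmp8a* in 27 and 13 cells (186 and 349.8 CPM). In endothelial marker cells, which should lack these genes, each of the 6 was found in at most 1.1% of 181 control cells and at most 4.08% of 147 Piezo1 fl/fl cells, at median depths of 3171 and 3258 UMIs.

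Which of the 6 genes occurred together is description only, since the rule gave every cell at least 3 of them. Of the 24 cells with *Phex* over both libraries, 21 had *Car3*, 21 *Slc13a5*, 20 *Ifitm5*, 18 *Bmp8a* and 16 *Dmp1*. Of the 38 cells with *Dmp1*, 33 had *Ifitm5*, 30 *Bmp8a*, 23 *Car3*, 18 *Slc13a5* and 16 *Phex*. In the control library 7 cells had all 6 genes, 9 had 5, 8 had 4 and 10 had 3. In the Piezo1 fl/fl library 0 cells had all 6 genes, 2 had 5, 5 had 4 and 11 had 3.

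**Figure D1:**
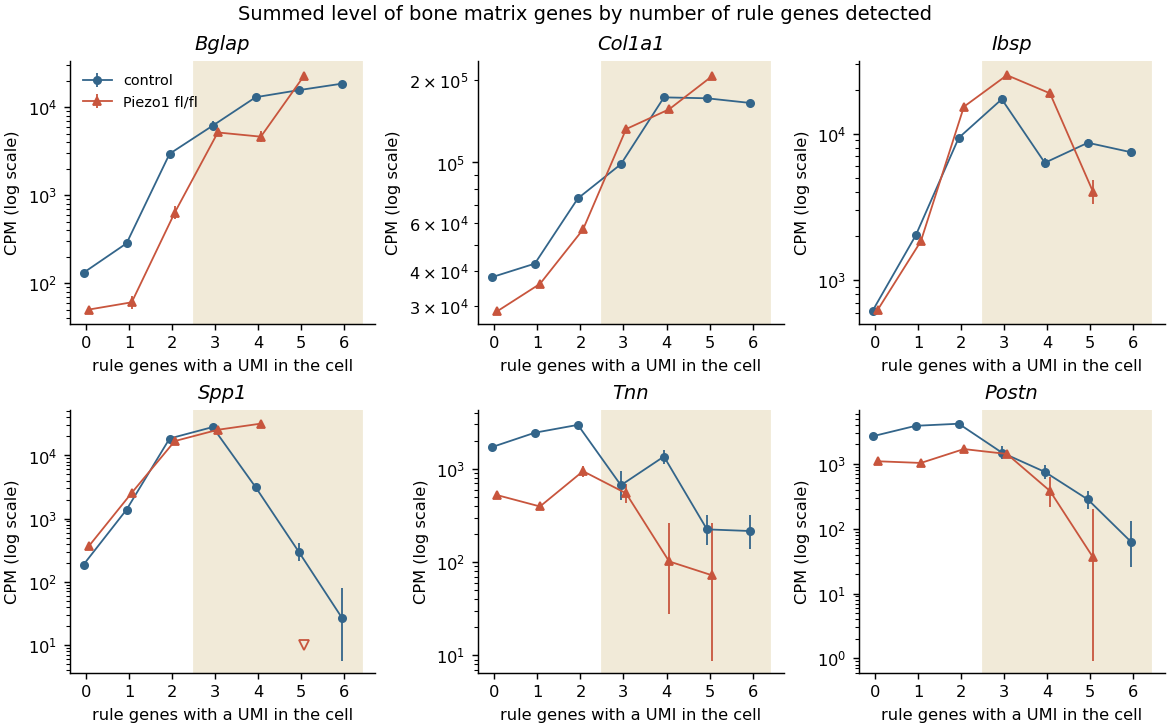
Summed level (CPM, log axis) of osteoblast genes in retained cells grouped by how many of the 6 genes had a UMI, for the control and the Piezo1 fl/fl library; the shaded part, 3 to 6 genes, holds the selected cells. *Bglap* climbs to 18539.5 CPM in control cells with all 6 genes while *Spp1* is at its top with 3 genes and near 0 with 5 or 6, and the open triangle marks 0 *Spp1* UMIs in the Piezo1 fl/fl cells with 5 genes.

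Retained cells can be ordered by how many of the 6 genes they had, and the genes outside the rule changed in different ways along this order. Depth changed along it too, with control medians of 7246, 5088, 9919, 13360 and 14281 UMIs at 2, 3, 4, 5 and 6 genes. The part of depth in the order was not tested. Control cells with exactly 2 genes, just outside the threshold (34 cells), had 2956 CPM of *Bglap*, and those with exactly 3, just inside it (10 cells), had 6166 CPM. From there *Bglap* was at 13011 CPM with 4 genes, 15655 CPM with 5 and 18539.5 CPM with 6, against 131 CPM in cells with none. *Col1a1* was at 73903 CPM with 2 genes and 98556 CPM with 3, and with 4, 5 and 6 genes stood at 172916, 171576 and 164982 CPM. In contrast, *Spp1* was at 18569.8 CPM with 2 genes and 28194 CPM with 3, and then at 3133, 298 and 27 CPM with 4, 5 and 6 genes. *Ibsp*, bone sialoprotein, peaked at the same place, with 17200.1 CPM at 3 genes and 6330.3 to 8674 CPM at 4 to 6. *Postn* and *Tnn*, matrix genes of the inner periosteal layer, were at 1501 and 669 CPM with 3 genes and at 63.1 and 216 CPM with all 6.

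*Bglap* and *Spp1* of the Piezo1 fl/fl library also parted at the far end of this order, over fewer cells and later than in the control. Its cells with exactly 2 genes (26 cells) had 634 CPM of *Bglap* and 16914 CPM of *Spp1*. Those with exactly 3 (11 cells) had 5168 and 25538 CPM, but 1 cell held 676 of their 689 *Bglap* UMIs. The 5 Piezo1 fl/fl cells with 4 genes had 4627 CPM of *Bglap* and 31978 CPM of *Spp1*. Here *Spp1* was still high where it had dropped in the control. Among these 5 cells, 1 held 129 of the 181 *Bglap* UMIs and another held 798 of the 1251 *Spp1* UMIs. The 2 Piezo1 fl/fl cells with 5 genes had 22674 CPM of *Bglap* and 0 *Spp1* UMIs.

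To ask what sets these cells apart within the osteoblast series, they were compared with the Tnn+ Ibsp+ cells of their own library (430 control and 267 Piezo1 fl/fl cells). Ratios are log2 ratios of CPM with 0.5 UMIs added, and genes with at least 20 UMIs over both groups were counted as higher or lower at 2-fold. In the control library 571 of 9395 such genes (6.08%) were higher in the selected cells and 1995 (21.2%) were lower. Of the latter, 1195 had an interval below 0 and 469 had 0 UMIs in the selected cells. In the Piezo1 fl/fl library 505 of 7926 (6.37%) were higher and 1580 (19.9%) lower. The median over all genes was −0.25 and −0.21. The 18 bone matrix genes of the list used below took 381172 CPM of the UMIs of the selected cells and 227591 CPM of those of the Tnn+ Ibsp+ cells in the control, and scaling by trimmed means (TMM) instead of by totals added 0.17 to each control ratio. Of 7850 genes counted in both libraries, 367 were higher by control cells and 486 by Piezo1 fl/fl cells, and the 150 that they shared were 40.9% of the first and 30.9% of the second. The comparison cells were chosen by *Tnn* and *Ibsp*, so these genes are described only. In the gene lists that follow, the counts are to be read beside the shares over all genes, 6.08% higher and 21.2% lower in the control and 6.37% higher and 19.9% lower in the Piezo1 fl/fl library.

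The largest ratios among the higher genes included those of 2 collagens and of a secreted antagonist. *Col22a1*, a minor collagen of tissue junctions, was at 393 CPM against 4.2 CPM in the control library (log2 ratio 6.51, interval 5.78 to 7.42) and at 5.97 in the Piezo1 fl/fl library. *Col11a2*, a fibril-forming collagen best known from cartilage, was at 3499 CPM against 53.7 CPM (6.02, 5.81 to 6.25) and was found in 33 of 34 control cells, from 0 over a median of 29.2 to 82.9 UMIs per 10000. Among the 18 Piezo1 fl/fl cells 14 had a *Col11a2* UMI, with a median of 11 per 10000 and a log2 ratio of 3.94. Cells of the 2 libraries overlapped widely in *Col11a2*, though the Piezo1 fl/fl cells reached only 47.9 per 10000. *Bmp3*, which opposes other bone morphogenetic proteins, was at 1102 CPM against 31.9 CPM (5.11, 4.81 to 5.42), and it too was found in 33 of 34 control cells and in 13 of 18 Piezo1 fl/fl cells. Its median was 8.77 and 4.44 UMIs per 10000 in the control and the Piezo1 fl/fl cells.

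*Bglap* was at 14644 CPM against 667 CPM in the control library (log2 ratio 4.46, interval 4.39 to 4.53) and at 7481 CPM against 415 CPM in the Piezo1 fl/fl library (4.17). Of the 34 control cells 33 had a *Bglap* UMI, with a median of 127 and a highest value of 290.1 UMIs per 10000. The Piezo1 fl/fl cells were split. While 10 of 18 had a *Bglap* UMI and the highest reached 258 per 10000, the median was 0.993, and 1 cell held 45.2% of the UMIs. In endothelial marker cells a *Bglap* UMI was found in 4.42% (control) and 0.68% (Piezo1 fl/fl), so the *Bglap* of these cells stood above free RNA. *Bglap2* was at 11762 CPM against 986 CPM in the control (3.58) and at 2.41 in the Piezo1 fl/fl library.

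Enzymes acting on lipids and nucleotides were also among the 12 genes with the largest control ratios. *Smpd3*, a sphingomyelinase needed for bone mineralisation, had a control log2 ratio of 4.97 (4.49 to 5.49) and *Sgms2*, which makes sphingomyelin, one of 4.24 (4.03 to 4.45), so genes for breaking down and for making the same lipid were both higher. The Piezo1 fl/fl ratios were 5.00 and 3.41. *Sgms2* was found in 32 of 34 control and 16 of 18 Piezo1 fl/fl cells, with medians of 12 and 8.43 UMIs per 10000. The secreted phospholipase *Pla2g5* (4.77) and the surface nucleotidase *Entpd3* (4.76) followed, at 4 and 4.64 in the Piezo1 fl/fl library. Genes of cell contact and shape, the adhesion molecule *Cadm1* (4.91), the actin regulator *Cyfip2* (4.08) and the semaphorins *Sema4d* (3.89) and *Sema3d* (3.89), completed the 12. All 12 were also higher in the Piezo1 fl/fl cells, from 2.80 for *Sema3d* to 5.97 for *Col22a1*.

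**Figure D2:**
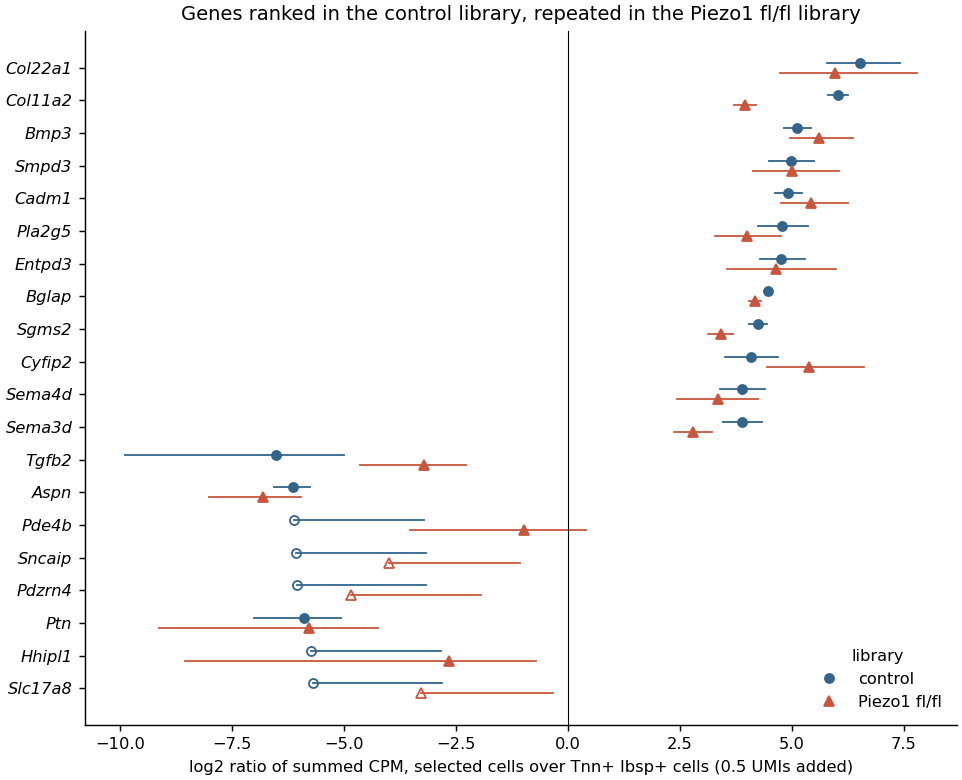
Log2 ratio of selected over Tnn+ Ibsp+ cells for the genes with the largest and smallest control ratios, in the control and the Piezo1 fl/fl library; bars are 95% counting intervals and open markers are genes with 0 UMIs in the selected cells. The 12 high genes are on the positive side in both libraries, from *Col22a1* at 6.51 and 5.97 to *Sema3d* at 3.89 and 2.80.

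Among the 18 bone matrix genes, 16 had enough UMIs in the control library and 6 were at least 2-fold higher and 4 lower, with a median log2 ratio of 0.80 beside −0.25 over all genes. Higher beside those named were the membrane collagen *Col13a1* (2.04) and the fibrillar collagen *Col24a1* (3.42). The most abundant proteins of bone were less than 2-fold apart, with 0.78 for *Col1a1*, 0.76 for *Col1a2* and 0.67 for *Sparc* (osteonectin). Lower were *Postn* (−4.42), *Tnn* (−3.73), *Mgp*, an inhibitor of mineralisation (−2.82), and *Cthrc1* (−1.51). In the Piezo1 fl/fl library the count was 6 higher and 2 lower of 15, with a median of 0.78, and *Mgp* and *Cthrc1* were at −0.81 and 0.06. *Tnn* and *Ibsp* chose the comparison cells, so the low *Tnn* ratio was set by that choice. Their part in these counts and medians is description only.

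Of 11 genes of mineral formation that could be counted in the control 6 were higher and 2 lower (median 1.85), where 6.08% of all genes were higher, and in the Piezo1 fl/fl library 9 were higher and 1 lower (median 1.57), where 6.37% of all genes were higher. *Fam20c*, the kinase that phosphorylates matrix proteins such as osteopontin, was at 2.41 and 2.70, the bone membrane protein *Tmem119* at 1.85 and 1.48, the amino acid carrier *Slc36a2* at 2.24 and 1.82, and the channel *Panx3* at 3.19 (12 UMIs) and 3.39 in the control and the Piezo1 fl/fl library. *Alpl*, the alkaline phosphatase that frees phosphate, was at 0.42 and 0.04, so it was already at this level in Tnn+ Ibsp+ cells. *Enpp1* and *Ank*, which raise pyrophosphate outside the cell and so restrain mineral, were at 0.02 and −0.11 in the control but at 1.57 and 1.21 in the Piezo1 fl/fl library.

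The transcription factors of bone fell into those shared with the earlier cells and those higher in the selected ones. *Runx2*, needed for any osteoblast, was at 0.02 (interval −0.26 to 0.28) in the control, and *Sp7* (osterix) at 0.64. *Dlx3* was at 148 CPM against 10.6 CPM (3.79, 3.18 to 4.43), the Wnt effector *Tcf7* at 3.76, *Mef2c*, a regulator of *Sost*, at 2.45 and *Creb3l1*, which acts on type I collagen, at 1.13. These 4 were at 3.99, 2.72, 1.98 and 1.07 in the Piezo1 fl/fl library. Of the 10 countable factors 5 were higher and 0 lower in the control, and 5 were higher and 1 lower (*Dlx6*, −1.40, 6 UMIs) in the Piezo1 fl/fl library.

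Osteocyte genes that did not choose the cells gave a mixed picture. Of 8 countable genes 5 were higher and 1 lower in the control (median 1.20), while 1 was higher and 2 were lower in the Piezo1 fl/fl library (median −0.51). *Irx5* was higher in both (2.03 and 1.74), and the receptor phosphatase *Ptprz1* was at 1.31 and 0.74. *Pdpn*, the gene of the E11 antigen of cells that grow osteocyte dendrites, was at 1.74 in the control, where 1 cell held 35.3% of the 51 UMIs, and at −0.59 with 6 UMIs in the Piezo1 fl/fl library. *Gja1*, the gap junction protein connexin 43, was at −0.01 and −0.51. The Wnt inhibitor *Dkk1* had 7 UMIs in 3 control cells and 10 UMIs in 2 Piezo1 fl/fl cells.

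Among signals to osteoclasts and blood cells, osteoprotegerin was higher and several others were lower. *Tnfrsf11b*, which encodes this decoy receptor for RANKL, was at 237 CPM against 25.7 CPM (log2 ratio 3.20, interval 2.77 to 3.64) in the control and at 3.12 in the Piezo1 fl/fl library. *Tnfsf11*, which encodes RANKL itself, had 1 UMI in the control cells against 66.9 CPM in Tnn+ Ibsp+ cells (−4.13, −10.02 to −2.22), and 7 UMIs in the Piezo1 fl/fl cells (−1.61). The chemokine *Cxcl12* was at −2.23 and −3.18 and *Igf1* at −3.41 and −1.51. Of 8 such genes that could be counted, 1 was higher and 5 were lower in the control, and 1 was higher and 6 were lower in the Piezo1 fl/fl library.

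Of 13 genes of BMP and TGF-beta signalling, 1 (*Bmp3*) was higher and 7 were lower in the control (median −1.71 beside −0.25 over all genes, of which 21.2% were lower). Of 12 in the Piezo1 fl/fl library, 1 was higher and 7 were lower (median −1.19 beside −0.21, with 19.9% of all genes lower). *Tgfb2* had 2 UMIs (5.1 CPM) in the control cells against 590.5 CPM in Tnn+ Ibsp+ cells (−6.53, −9.90 to −5.00), and 7 UMIs in the Piezo1 fl/fl cells (−3.22). *Tgfb3* was at −1.71 and −1.17. Among Wnt genes 1 of 8 was higher and 4 were lower in the control, with the inhibitors *Wif1* at 2.20 and *Sfrp4* at −2.49 and the ligand *Wnt16*, which protects cortical bone, at −1.28. In the Piezo1 fl/fl library 1 of 7 was higher and 2 were lower, and *Sfrp4* was at −0.52.

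Hormone and growth factor receptors lay near the shares over all genes, with 2 of 12 higher and 3 lower in the control (median −0.19, 6.08% and 21.2% over all genes) and 1 higher and 4 lower in the Piezo1 fl/fl library (median −0.42, 6.37% and 19.9%). The parathyroid hormone receptor *Pth1r* was at 464 CPM against 210.4 CPM (1.14, 0.90 to 1.38) and at 0.86 in the Piezo1 fl/fl library. The vitamin D receptor *Vdr* was at 0.51 and 1.05. Enzymes that process collagen stayed within 2-fold for 18 of 20 genes in either library (medians 0.00 and −0.07), with *Tent5a*, which stabilises collagen mRNA, higher (1.14 and 1.24) and *Loxl1* lower (−2.57 and −1.49).

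Of 11 progenitor genes, 7 were lower and 2 higher in the control, where 21.2% of all genes were lower, and 6 were lower and 2 higher in the Piezo1 fl/fl library, where 19.9% were. Their medians were −1.75 and −1.40, beside −0.25 and −0.21 over all genes. The list also holds *Tnn*, which chose the comparison cells, so its part in these counts and medians is description only. *Prrx1*, whose promoter drives the Cre used in the sort, was at −1.38 and −0.66, and the protease *Ctsk* at −1.75 and −0.69. *Cd200* was higher in both (1.79 and 1.30), and *Pdgfra* was at 1.76 in the control but −0.32 in the Piezo1 fl/fl library. The lowest control ratios by the rule for named genes, beside *Tgfb2*, were those of the small proteoglycan *Aspn* (−6.14, 138 CPM against 9825 CPM, and −6.81 in the Piezo1 fl/fl library) and the growth factor *Ptn* (−5.89 and −5.78). Another 5 genes of that set had 0 UMIs in the control cells and were at least 11.5-fold lower for *Pde4b*, 11.2-fold for *Sncaip*, 11.1-fold for *Pdzrn4*, 8.89-fold for *Hhipl1* and 8.67-fold for *Slc17a8*, with 3 UMIs per group taken as the floor. In the Piezo1 fl/fl cells *Sncaip*, *Pdzrn4* and *Slc17a8* were again at 0 UMIs (at least 2.65-, 4.78- and 1.62-fold lower), and *Pde4b* and *Hhipl1* had 3 and 1 UMIs.

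Of the energy genes 6 of 15 were lower and 1 higher in the control (median −0.78, with 21.2% of all genes lower), and 2 of 13 lower and 1 higher in the Piezo1 fl/fl library (median −0.03, with 19.9% of all genes lower). The higher gene in either library was *Ckb*, brain-type creatine kinase, at 2.42 and 3.42. Of the mechanosensing genes 7 of 12 were lower and 1 higher in the control (median −1.30) and 3 of 9 lower and 1 higher in the Piezo1 fl/fl library (median −0.68). Among them *Ptgs2*, the enzyme of prostaglandin synthesis induced by loading, had 1 UMI in the control cells against 143 CPM (−5.22, −11.11 to −3.32) and 0 UMIs in the Piezo1 fl/fl cells. Immediate early genes, which tissue digestion can raise, were all lower in the control (11 of 11, median −2.60), with *Fos* at −2.47 and *Egr1* at −3.30, and 5 of 11 were lower in the Piezo1 fl/fl library (median −0.90). Their summed level in the control was 1793 CPM in the selected and 11182 CPM in the Tnn+ Ibsp+ cells. Its part in the other differences was not tested.

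Against all other retained cells of the control library, 1000 of 13453 genes (7.43%) were at least 2-fold higher in the selected cells, and 444 of them had an interval above 0. By the rule for named genes the 10 largest ratios were those of *Entpd3* (6.80), the sodium-proton exchanger *Slc9a2* (6.65), *Bglap* (6.40), *Col11a2* (6.26), *Bglap2* (5.55), *Bmp3* (5.42), the choline phosphodiesterase *Enpp6* (5.22), *Pla2g5* (5.15), the small GTPase *Rerg* (5.04) and *Cyfip2* (5.02). *Slc9a2* and *Rerg* were close to absent in Tnn+ Ibsp+ cells as well (1.68 and 3.36 CPM, against 217 and 222 CPM). In the Piezo1 fl/fl cells *Slc9a2* was at 50 CPM and was found in 2 of 18 cells, and *Rerg* at 99.9 CPM in 7. All 6 endothelial and all 6 mural markers together reached 12.8 and 15.3 CPM in the control cells, against 185 and 783 CPM in the other cells.

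The 52 cells differed among themselves in whether they carried *Bglap* or *Spp1*. With at least 50 UMIs per 10000 as the limit, 27 cells passed it for *Bglap* alone, 18 for *Spp1* alone, 2 for both and 5 for neither. In the control library these numbers were 23, 7, 2 and 2, and in the Piezo1 fl/fl library 4, 11, 0 and 3. *Spp1* ranged from 0 to 1326 UMIs per 10000 over the control cells with a median of 0, and from 0 to 874 with a median of 177 over the Piezo1 fl/fl cells. *Ibsp*, by contrast, had a UMI in all 52 cells, from 33.1 over 70.7 to 540.4 per 10000 in the control and from 11 over 175 to 683 in the Piezo1 fl/fl library (lowest, median and highest).

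**Figure D3:**
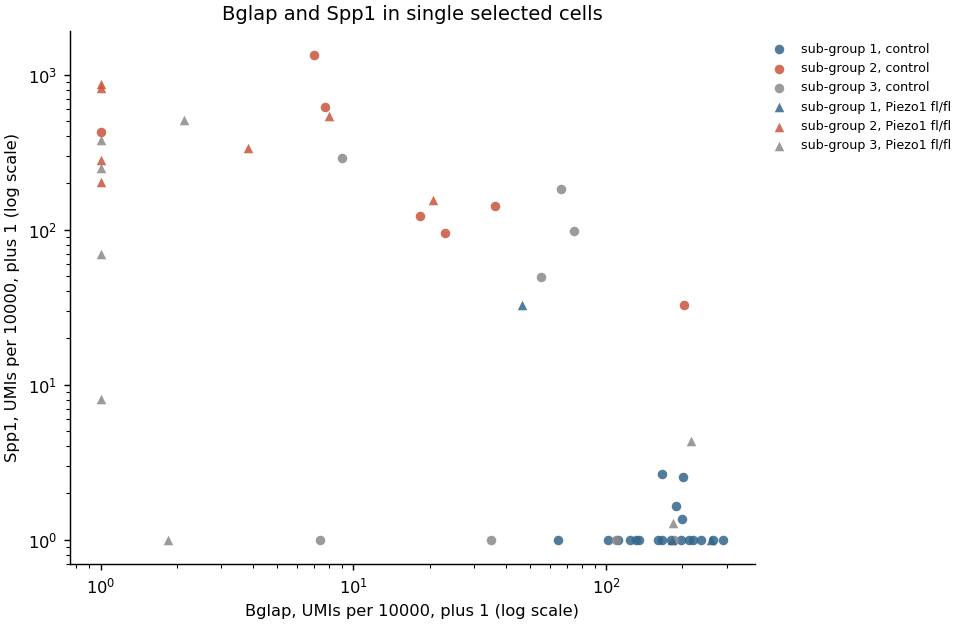
Each point is a selected cell, with *Bglap* on the x axis and *Spp1* on the y axis, both as UMIs per 10000 plus 1 on log axes, by library and sub-group. Most cells lie along one axis or the other, and 2 of 52 pass 50 per 10000 for both.

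Leiden clustering of the 52 cells without the 6 genes divided them into 3 sub-groups, which are described by the genes that lead them and not tested. Sub-group 1 held 22 cells (19 control and 3 Piezo1 fl/fl) and was led by *Col2a1*, *Entpd3* and the integrin ligand *Npnt*, with *Col11a1*, *Loxl2*, *Ano1*, *Col11a2* and *Bglap* among its 15 leading genes. *Col2a1* had a UMI in 16 of the 22 cells. The summed cartilage markers, which include *Col2a1*, were at 2641 CPM in the 3 Piezo1 fl/fl cells and 316 CPM in the control cells. In 1 Piezo1 fl/fl cell they reached 54.7 UMIs per 10000. In the control cells of sub-group 1 *Bglap* ran from 63.2 over a median of 179 to 290.1 UMIs per 10000. There *Spp1* was found in 4 of 19 cells with a highest value of 1.63. The 3 Piezo1 fl/fl cells lay in or near the same range of *Bglap*, from 45.4 to 258. Control cells of sub-group 1 had a mean of 4.89 of the 6 genes, more than those of the other sub-groups.

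Sub-group 2 held 14 cells, 7 of each library, and was led by *Mmp13*, the collagenase of bone remodelling and of late cartilage cells. *Mmp13* was at 17623 CPM in it and at 21.2 CPM in the other cells, and *Cd74*, *Serpine2*, *Tnc*, *Postn*, *Ank*, *Spp1* and *Enpp1* followed among its leading genes. *Cd74* was found in 3 of the 14 cells, and 1 of them held 148 of its 150 UMIs. *Spp1* was at 39565 CPM against 3436 CPM, and all 14 cells had an *Spp1* UMI. *Phex* and *Slc13a5* were at 0 UMIs in all 14 cells, so they were chosen by the other 4 genes. *Col1a1* was at 84004 CPM in the control and 84817 CPM in the Piezo1 fl/fl cells of this sub-group, and *Bglap* at 8324 and 412 CPM. The *Mmp13* level was uneven, since the control cells ran from 0 over 5.21 to 499.8 and the Piezo1 fl/fl cells from 0 over 142 to 725 UMIs per 10000.

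Sub-group 3 held 16 cells, 8 of each library, and was led by *Ccn2*, a matricellular protein raised by TGF-beta and by YAP, *Chad* (chondroadherin), *Bhlhe40*, *Fmod* (fibromodulin) and *Cdkn1a*. Most UMIs of *Ccn2*, *Chad* and *Fmod* came from its Piezo1 fl/fl cells, with 384, 114 and 72 UMIs against 7, 6 and 3 in its control cells. In control cells *Ccn2* was at 70.2 CPM in sub-group 3 and at 50.5 CPM in sub-group 1. Over both libraries, *Bglap* was found in 12 cells of sub-group 3 and *Spp1* in 11. *Prg4* (lubricin) and *Fmod* are also genes of the joint surface and of tendon. The summed tendon markers were at 301 CPM in its control and 1212 CPM in its Piezo1 fl/fl cells, against 152 and 112 CPM in sub-group 1, and their part in this sub-group was not tested.

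**Figure D4:**
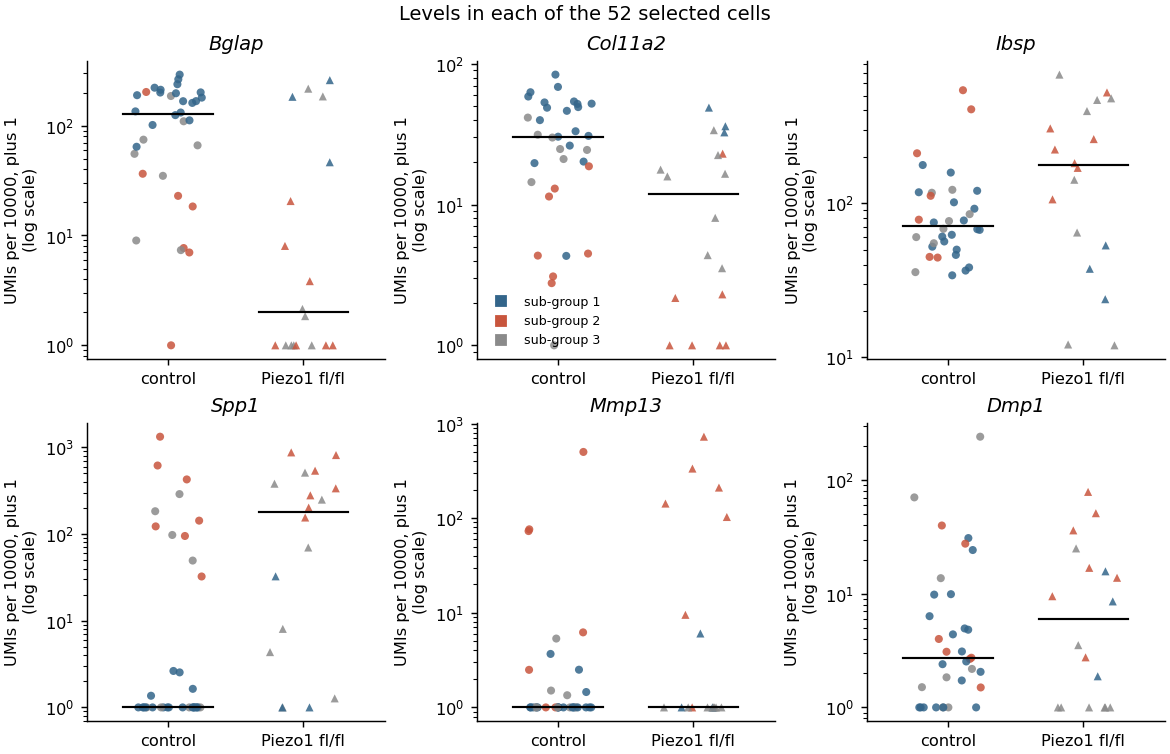
Values of single selected cells for selected genes (UMIs per 10000 plus 1, log axis), control beside Piezo1 fl/fl, coloured by sub-group; lines are medians. The median of *Bglap* is 127 in the control but 0.993 in the Piezo1 fl/fl cells, that of *Spp1* 0 and 177, and the ranges of the libraries overlap.

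The genotypes were compared within the selected cells, the comparison the labels imply. *Piezo1*, the mechanosensitive channel whose gene was floxed, had 2 UMIs in the control and 1 UMI in the Piezo1 fl/fl cells, and 133 and 70 UMIs in the other retained cells. The 3′ counts may lie outside the deleted part, so these numbers do not check the deletion. These cells made up 0.762% of retained control and 0.349% of retained Piezo1 fl/fl cells, but the Tnn+ Ibsp+ cells were also fewer, 9.64% against 5.18%. Of the selected and Tnn+ Ibsp+ cells together, the former were 7.33% (5.13 to 10.1%) in the control and 6.32% (3.79 to 9.80%) in the Piezo1 fl/fl library, intervals that overlap. A share of sorted cells also depends on the digestion and the sort, which cannot be told apart from the genotype with 1 library each.

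Of 3473 genes with at least 20 UMIs over both groups, 284 (8.18%) were at least 2-fold higher and 307 (8.84%) at least 2-fold lower in the Piezo1 fl/fl cells, with a median of 0.01. The main bone proteins were close to equal, with a log2 ratio of −0.13 (−0.15 to −0.11) for *Col1a1*, −0.10 for *Col1a2* and 0.02 for *Sparc*. *Spp1* was at 23268 CPM in the Piezo1 fl/fl against 4409 CPM in the control cells (2.40, 2.32 to 2.48), and had a UMI in 15 of 18 against 15 of 34 cells. When each cell was given equal weight by taking the mean over cells, its ratio was 1.31. *Ibsp* was at 20964 CPM against 8844 CPM (1.25, 1.18 to 1.31), while *Bglap* was lower at −0.97 (−1.05 to −0.89) and *Bglap2* at −1.10. In Tnn+ Ibsp+ cells the ratio was 1.49 for *Spp1*, 1.16 for *Ibsp* and −0.68 for *Bglap*. The *Spp1* difference was therefore not limited to the selected cells. *Ibsp* chose the Tnn+ Ibsp+ cells at the same UMI limit in both libraries, so its ratio there is description only. In endothelial marker cells, which should lack these genes, *Spp1* had a UMI in 4.97% of control and 9.52% of Piezo1 fl/fl cells. Its level there was 15.5 and 1297 CPM, that of *Ibsp* 35.2 and 626 CPM and that of *Bglap* 18.3 and 1.52 CPM. The part of this background in the ratios was not tested.

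The pair of genes that set pyrophosphate outside the cell was higher in the Piezo1 fl/fl cells. The transporter gene *Ank* was at 1024 CPM against 135 CPM (2.91, 2.48 to 3.39) and *Enpp1* at 699.6 CPM against 102 CPM (2.77, 2.26 to 3.32). In Tnn+ Ibsp+ cells they were at 1.59 and 1.21. Of 9 countable genes of mineral formation 3 were higher (*Ank*, *Enpp1* and *Panx3*) and 0 lower, with a median of −0.31. Over all genes 8.18% were higher and 8.84% lower. *Panx3* rested on 52 UMIs in 4 Piezo1 fl/fl cells against 12 UMIs in 7 control cells. The bone transcription factors were 0 higher and 1 lower of 10 (*Dlx6*, −1.63), with a median of −0.37, beside the same shares over all genes.

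Some of the other large ratios rested on few cells or changed with the weight given to each cell. *Cd74*, the invariant chain of antigen-presenting cells, had the largest ratio (5.50), but 98.7% of its 150 UMIs came from 1 cell, and 1 Piezo1 fl/fl cell carried at least 3 blood markers. *Ccn2* was at 2034 CPM against 94.4 CPM (4.41, 3.94 to 4.96) and *Chad* at 3.60, *Fmod* at 2.43 and *Mmp13* at 3.25, where 1 cell held 77.7% of the control and 1 cell 63.0% of the Piezo1 fl/fl UMIs. In endothelial marker cells *Mmp13* was at 14.1 CPM in the control and 846 CPM in the Piezo1 fl/fl library. *Serpine2*, a protease inhibitor, was at 2.42 and *Col6a3* at 2.40. Without the top cell of each library *Ccn2* was at 4.34, *Serpine2* at 2.73 and *Col6a3* at 2.39. As a mean over cells the ratio was 3.48 for *Ccn2*, 2.12 for *Mmp13*, 1.59 for *Serpine2*, 2.34 for *Ank* and 2.03 for *Enpp1*. Markers of tendon summed to 719.6 CPM in the Piezo1 fl/fl and 219 CPM in the control cells (at least 3 markers in 5 of 18 and 5 of 34 cells, *Kera* at 0 in both), and markers of cartilage to 979 and 303 CPM (2 of 18 and 0 of 34 cells). Without the cells that had at least 3 markers of another cell type, the ratio was −0.29 for *Cd74*, −0.29 for *Fmod*, 0.53 for *Chad*, 2.50 for *Ccn2* and 2.34 for *Spp1*. *Fmod* is itself a tendon marker that helped choose the cells taken out, so its change was partly set by that choice.

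Lower in the Piezo1 fl/fl cells were, by the rule for named genes, *Sorbs2* (−2.85), *Prg4* (−2.84, with 66.5% of the control UMIs in 1 cell), the chloride channel *Ano1* (−2.24), *Fstl1* (−2.24), the semaphorin receptor *Nrp2* (−2.08), *Pdgfra* (−2.07), the receptor phosphatase *Ptprs* (−2), *Prss35* (−1.97), *Npnt* (−1.95) and *Mamdc2* (−1.88). *Sorbs2*, *Ano1*, *Nrp2*, *Pdgfra*, *Prss35* and *Npnt* are among the 15 leading genes of sub-group 1, which held 19 of 34 control but 3 of 18 Piezo1 fl/fl cells. *Nrp2* was at 1196 CPM in the control, in 32 of 34 cells, and at 279.9 CPM in the Piezo1 fl/fl library, in 15 of 18 cells.

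**Figure D5:**
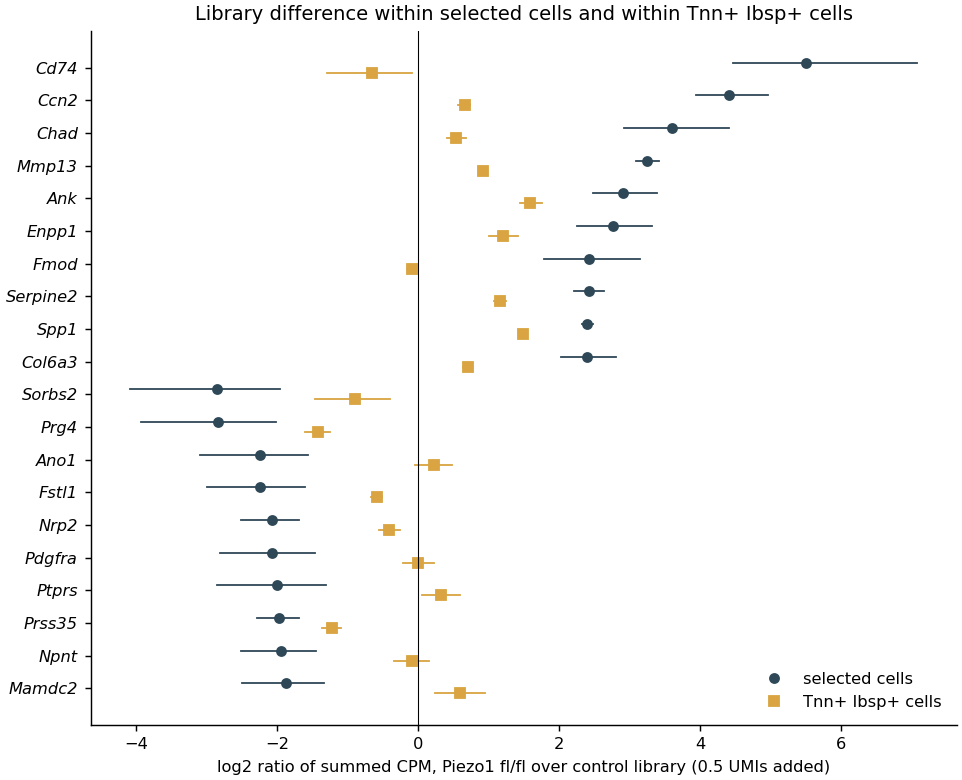
Log2 ratio of Piezo1 fl/fl over control for genes named in the text, in the selected cells and in the Tnn+ Ibsp+ cells, with 95% counting intervals. *Spp1* is at 2.40 in the selected cells and at 1.49 in the Tnn+ Ibsp+ cells.

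The libraries differed in how far along the order of the 6 genes their cells lay, so the ratios were also taken at equal numbers of these genes. Equal numbers did not mean equal depth. The median was 5088 UMIs in control and 10573 UMIs in Piezo1 fl/fl cells with exactly 3 genes. With 4 to 6 genes it was 13316 and 8176 UMIs. Among cells with exactly 3 genes (10 control and 11 Piezo1 fl/fl cells) *Spp1* was at −0.14, *Enpp1* at 0.19 and *Serpine2* at −0.23, against 2.40, 2.77 and 2.42 over all cells, while *Ank* stayed at 1.14, *Ccn2* at 2.90 and *Chad* at 2.81. *Ibsp* was at 0.54. Among cells with 4 to 6 genes (24 and 7 cells) *Spp1* was at 4.24, *Enpp1* at 4.31 and *Ank* at 3.68. In the latter group the level of *Spp1* was 18735 CPM from 1251 UMIs in the Piezo1 fl/fl library, 798 of them in 1 cell, and 989 CPM in the control. Cells with exactly 3 genes were 11 of 18 in the Piezo1 fl/fl and 10 of 34 in the control library.

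The libraries were also compared within sub-groups 2 and 3, where they had equal numbers of cells, and not in sub-group 1, with 19 and 3 cells. The sub-groups were formed from levels of genes outside the 6. Ratios of their leading genes, such as *Spp1*, *Ank* and *Enpp1* in sub-group 2 and *Ccn2* in sub-group 3, are therefore description only. In sub-group 2 (7 against 7 cells) *Spp1* was at 1.10 (1.01 to 1.19), *Ank* at 2.93, *Enpp1* at 2.40 and *Ibsp* at 0.79. *Bglap* was at −4.31, with a UMI in 6 of 7 control and 3 of 7 Piezo1 fl/fl cells, but 1 control cell held 404 of the 457 control UMIs, and without the top cell of each library the ratio was −2.94 (−4.07 to −2.03), from 53 and 11 UMIs. In sub-group 3 (8 against 8 cells) *Spp1* was at 1.66 and *Ibsp* at 1.59. *Bglap* was at −0.32 there, but 1 Piezo1 fl/fl cell held 676 of its 807 and 1 control cell 536 of its 1018 UMIs, and without both cells the ratio was −1.69 (−1.98 to −1.41). *Ccn2* was at 5.69 (4.73 to 7.11), with 384 against 7 UMIs, and from 0 over a median of 33.1 to 84.1 UMIs per 10000 in the Piezo1 fl/fl against 0.936 and at most 4 in the control cells. *Dmp1* was at 2.09 in sub-group 2 and at −3.23 in sub-group 3, where 1 control cell reached 239.9 UMIs per 10000. *Alpl* went from −4.16 in sub-group 2 to 1.03 in sub-group 3.

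Immediate early genes were higher in the Piezo1 fl/fl cells, with 10 of 11 at least 2-fold higher (median 1.56), where 8.18% of all genes were. The 11 ran from *Fosb* at 0.71 to *Dusp1* at 3.13, with *Jun* at 1.56 and *Fos* at 1.35. In Tnn+ Ibsp+ cells 0 of 11 were 2-fold apart (median −0.12), where 3.3% of all genes were higher and 3.29% lower. In the selected cells the sum of the 11 genes was 5257 CPM against 1793 CPM. With 4 to 6 of the 6 genes it was 1348 CPM against 1371 CPM, and with exactly 3 it was 7215 CPM against 4726 CPM. The single cells ranged from 4.45 to 367 and from 0 to 258 UMIs per 10000, so the libraries overlapped. The part of this gene group in the other genotype differences was not tested.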

How the data were processed

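Single-cell RNA counts of periosteal Prrx1-lineage cells from 2 libraries, 1 per genotype, were used. The authors deposited counts, as whole UMIs per gene and barcode without normalization; their processing notes name fastp, UMI-tools, STAR and Seurat 4.0.3, and the genome build and annotation are not given in the sources used here. Of 31253 gene IDs, 31107 were found in GENCODE vM21 (GRCm38) and 30203 had the same symbol. There were 6118 control barcodes with 28030299 UMIs and 7469 Piezo1 fl/fl barcodes with 32337308 UMIs.

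Barcodes needed at least 1000 genes and a mitochondrial share under 25% of UMIs. Doublets were scored by Scrublet in scanpy 1.11.5 and left in, as 0 of the 52 cells were called. UMIs were summed per group and scaled to CPM, with exact Poisson intervals for levels, exact conditional intervals for ratios and Clopper-Pearson intervals for shares, all at 95% and for counting error only, since no replicate exists. Ratios were taken with 0.5 UMIs added, and at least 20 UMIs over both groups were required. The scripts were tested on simulated counts. The 52 cells were clustered by Leiden in scanpy, without the 6 genes that chose them. TMM factors came from edgeR 4.0.16, used for scaling alone. Promoter sequences came from RefSeq (GRCm38.p6).

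The members and gene lists were chosen with earlier results of these data known. Named genes, with at least 100 UMIs in both groups together and 50 CPM in the higher group, were the 12 largest and 8 smallest control ratios to Tnn+ Ibsp+ cells, the 10 largest to all other cells and the 10 largest and 10 smallest genotype ratios, without the 6 genes and without genes of mitochondria, ribosomal proteins, hemoglobins, the Y chromosome or *Xist*, beside genes of the lists described by role.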

Additional observations from a re-analysis of the deposited data

Results flagged for a closer look

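For 5 genes of the lists, the ratio of selected over Tnn+ Ibsp+ cells with 0.5 UMIs added passed 2-fold in opposite directions in the control and the Piezo1 fl/fl library. For *Slc20a1* this rests on the added UMIs, since its bound in the control was less than 2-fold. The differences were not tested, as each library is 1 sample. *Col2a1*, the main collagen of cartilage, was at −1.26 in the control library but 1.25 in the Piezo1 fl/fl library, where 1 cell held 86.4% of its UMIs. *Angptl7* was at −2.03 and 2.70, with 86.8% of the Piezo1 fl/fl UMIs in 1 cell. *Slc20a1*, a phosphate carrier, was at −2.92 with 0 UMIs in the control cells (at least 1.24-fold lower) and at 1.38 with 12 UMIs in the Piezo1 fl/fl cells. The matrix protein *Fbln7* was at 1.33 and −1.25, with 14 and 1 UMIs, and the chemokine scavenger *Ackr3* at 1.09 and −1.32, with 72 and 7 UMIs.

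Outside the cell filter, 6 of 1656 control barcodes and 2 of 2314 Piezo1 fl/fl barcodes carried at least 3 of the 6 genes. The 6 control barcodes had 295 to 965 detected genes and a median of 1818 UMIs. Their *Bglap* level was 14890.4 CPM, against 323 CPM in the other control barcodes outside the filter, with 7219.6 against 972 CPM for *Ibsp* and 224258 against 39001 CPM for *Col1a1*.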

How the results depend on the processing

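No paired analysis was possible because each genotype is 1 library and the labels give no replicate numbers. Of 14 alternatives chosen at the start and 4 added after seeing the data, 80 counts and shares kept within 1.5 times of the value reported or within its interval and 20 moved. The share of cells was 1.52% (control) and 0.854% (Piezo1 fl/fl) with at least 2 of the 6 genes, and 0.136% in the Piezo1 fl/fl library with at least 4. Genes lower than in Tnn+ Ibsp+ cells, 1995 in the control, were 1013 with at least 2 of the 6 genes and 1244 after thinning to 2500 UMIs. Against all other cells, 1000 genes were higher and 4166 lower, and 1751 and 2907 with TMM scaling, which added 0.42 to each ratio; higher genes were 1781 with a minimum of 10 UMIs, 1734 with 1 UMI added and 2724 after thinning, with 2724 lower. In these settings 1184 (thinning), 640 (10 UMIs), 550 (1 UMI added) and 119 (TMM) of the higher genes had 0 UMIs in the selected cells and passed through the added UMIs alone. Of the genotype ratios, 284 genes higher and 307 lower became 45 and 47 after thinning, 554 and 628 with 10 UMIs, and 126 and 140 in cells with exactly 3 of the 6 genes; 449 were higher with at least 2 of the 6 genes, 176 with at least 4 (or 4 to 6 in both libraries), and 464 were lower when each gene was taken without its top cell in each library. The named ratios to Tnn+ Ibsp+ cells (20 genes) and to all other cells (10 genes) kept their sign in every alternative run, and so did 19 of 27 genotype ratios past 2-fold. *Postn*, at 1.08, turned to −0.54 with at least 2 genes, −0.47 with at least 4 and −0.08 with exactly 3; *Fmod* to −0.87 with at least 4 and −0.29 without cells showing another cell type; *Cd74* to −0.29 without those cells and −0.11 without its top cell. *Fmod* is itself a marker by which cells showing another cell type were taken out. With exactly 3 genes *Serpine2* was at −0.23, *Spp1* at −0.14, *Prss35* at 0.04, *Phex* at 1.73 (4 and 0 UMIs) and *Pdpn* at 1.37 (3 and 0 UMIs). Apart from the genes at 0 UMIs, the cause of these changes was not tested.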
